A study of Mus musculus with 10 samples.

Results

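The Wnt ligands other than Wnt4 and Wnt9b were followed in RNA from metanephric mesenchyme, the embryonic kidney tissue into which the ureteric bud grows. The genes are Wnt2, Wnt2b, Wnt5a, Wnt5b, Wnt6, Wnt7b, Wnt9a, Wnt10a, Wnt11 and Wnt16. Every probe set annotated to exactly 1 of these symbols was taken, which gave 17 probe sets for 10 genes, out of 45037 probe sets and 18193 named genes in all. Wnt5a has 4 of these probe sets, Wnt5b, Wnt6, Wnt7b and Wnt9a have 2 each, and the other 5 genes have 1 each. The questions asked of them were which are present in the mesenchyme and whether any differs when Wnt9b is missing.

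Expression was measured on 10 Affymetrix whole-genome mouse arrays, each hybridised with RNA from its own pool of 25 to 30 mesenchymes of mouse embryos at E11.5. The groups were 5 pools labelled Wnt9b-/-, called mutant, and 5 pools labelled as Wnt9b+/+ littermates, called wild type. Embryos came from intercrosses of Wnt9b heterozygotes, and the series' design text gives the controls as Wnt9b+/- where the sample labels give Wnt9b+/+. The mesenchyme had been freed of the ureteric bud by trypsin and pancreatin, and its genotype was the only stated difference between groups.

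Wnt proteins are secreted glycoproteins that carry a lipid, which Porcn attaches and which Wls needs in order to carry them to the cell surface. On receiving cells they bind Frizzled receptors, either with Lrp co-receptors to stabilise beta-catenin or with Ror and Ryk receptors to steer cell movement and polarity without it. In the kidney Wnt9b comes from the ureteric bud and induces the mesenchyme, which then makes Wnt4. Wnt11, Wnt7b and Wnt6 are known as ureteric bud genes, Wnt11 at the branching tips and Wnt7b in the trunk that becomes collecting duct. Wnt5a is known as a mesenchymal ligand, and Wnt2b as a gene of the cells around the cap mesenchyme.

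The deposited signals had the same trimmed mean on each array, and values are given as signal or as log2(signal + 1), called log2 signal. Because the deposited table holds no detection calls, a background level was set on each array. It is the 95th percentile of 80 probe sets for olfactory and vomeronasal receptors, genes taken as unused in kidney, and lay at signals of 67.6 to 111. Probe sets differ in brightness for the same amount of RNA, so a signal above this level describes presence, and signals of different genes are not ranked. Of all 45037 probe sets 47.8% lay above the level on at least 5 arrays, and of the 17 Wnt probe sets 35.3%, or 6. Markers of cell types in the tissue were read in the same way. All 10 measured nephron progenitor markers and all 9 measured renal stroma markers lay above the level on at least 5 arrays. So did 11 of 15 measured ureteric bud markers, Krt19, Rab25, Esrp1 and Cldn3 being the exceptions. By the brightest probe set, as these markers and the gene lists below were read, 10831 of all 18193 genes did so. The summed signal of the bud markers ran from 2528 to 4375 in wild type and from 1600 to 5227 in the mutant. The arrays also fell into 2 sets by an 18S ribosomal RNA control, 4 arrays at 1975 to 2587 and 6 at 92.4 to 322, with 2 and 3 mutant arrays respectively. Wnt9b itself, with its brighter probe set, gave 81.7, 99.7, 89.1, 92.1 and 78.2 in wild type. In the mutant it gave 78.6, 106, 100, 64.2 and 41.8. No source used here places its probes inside or outside the deletion, so these values check nothing about the labels.

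Wnt11, Wnt7b, Wnt5a and Wnt6 were above the background level on all 10 arrays with their brightest probe set, and Wnt5b on 8. Wnt2, Wnt2b, Wnt9a, Wnt10a and Wnt16 were above it on none, with any probe set. None of the 17 Wnt probe sets was called between mutant and wild type at an adjusted p under 0.05 in limma. Of all probe sets 0.00444% were called (2 of 45037, those of Cd109 and Cdh4), and 0 with arrays of shared title wording as a replicate block. With so few calls in all, a probe set that was not called may still differ. The adjusted p of each of the 17 was 1.00. In these bulk pools fewer cells of a type and less RNA per cell cannot be told apart.

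Wnt11, a ligand of the bud tips that takes part in the loop with Ret and Gdnf, was read by 1 probe set (1450772_at). Its signal was 262, 360, 357, 375 and 256 in wild-type replicates 1 to 5. It was 420, 507, 347, 301 and 360 in mutant replicates 1 to 5. Mutant replicates 1 and 2 lay above every wild-type array, while the other 3 mutant arrays lay within the wild-type range. Wild-type log2 signals averaged 8.32 ± 0.27 (SD, n = 5) and mutant ones 8.58 ± 0.29 (SD, n = 5), a difference of 0.26 (SE 0.19, limma adjusted p = 1.00). The 95% interval of the difference, -0.16 to 0.68, corresponds to 0.897 to 1.6 times the wild-type signal.

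Wnt7b, which in later kidneys is needed to lengthen the collecting ducts, had a bright and a dim probe set. The bright one (1420892_at) gave signals of 280, 183, 224, 232 and 183 in wild type. In the mutant it gave 283, 237, 305, 170 and 147. The mutant arrays reached further in both directions than the wild-type arrays, and the means were nearly equal. Wild-type log2 signals averaged 7.77 ± 0.26 (SD, n = 5) and mutant ones 7.79 ± 0.46 (SD, n = 5), a difference of 0.01 (SE 0.23, 95% interval -0.51 to 0.53). The dim probe set (1420891_at) was below the background level on all arrays, with signals from 3.93 to 62.8 in wild type and 15.2 to 64.6 in the mutant. All 5 mutant arrays lay above the wild-type mean, with a difference of 0.96 (SE 0.71, limma unadjusted p = 0.204) that was 1.47 without wild-type replicate 4, 0.54 without wild-type replicate 1 and 0.45 with a pseudocount of 16. It did not follow the bright one (r = -0.03 over 10 arrays, a description).

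Wnt6, a further epithelial ligand of the bud, also had a bright and a dim probe set. The bright one (1419708_at) gave 85.1, 122, 129, 185 and 121 in wild type. In the mutant it gave 153, 191, 122, 75.3 and 131. The groups overlapped almost completely, and 2 arrays, wild-type replicate 1 and mutant replicate 4, were only just above the background level. Wild-type log2 signals averaged 6.97 ± 0.39 (SD, n = 5) and mutant ones 7.02 ± 0.49 (SD, n = 5), a difference of 0.05 (SE 0.27, 95% interval -0.56 to 0.65).

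Wnt5a, the ligand that acts mainly through Ror receptors and without beta-catenin, was read by 4 probe sets. The brightest (1436791_at) gave 140, 194, 168, 180 and 202 in wild type. In the mutant it gave 168, 132, 175, 240 and 186. Mutant replicate 4 was the highest and mutant replicate 2 the lowest of all 10 arrays, with the wild-type arrays between them. Wild-type log2 signals averaged 7.46 ± 0.21 (SD, n = 5) and mutant ones 7.47 ± 0.31 (SD, n = 5), a difference of 0.01 (SE 0.18). Its 95% interval, -0.39 to 0.41, was the narrowest of the 17 and corresponds to 0.763 to 1.33 times the wild-type signal. A second probe set (1448818_at), above the level on 5 arrays, differed by -0.16 (SE 0.41).

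Wnt5b, the close relative of Wnt5a, had its brighter probe set (1439373_x_at) above the level on all 5 wild-type and on 3 mutant arrays. Its signals were 83.5, 149, 106, 105 and 157 in wild type. In the mutant they were 66.7, 106, 96.9, 129 and 143. Mutant replicate 1 was the lowest of all arrays, and the other 4 mutant arrays lay within the wild-type range. Wild-type log2 signals averaged 6.88 ± 0.38 (SD, n = 5) and mutant ones 6.73 ± 0.42 (SD, n = 5), a difference of -0.15 (SE 0.25, 95% interval -0.71 to 0.40). The second Wnt5b probe set (1422602_a_at) was above the level on 1 array, wild-type replicate 4, and differed by -0.45 (SE 0.40).

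**Figure D1:**
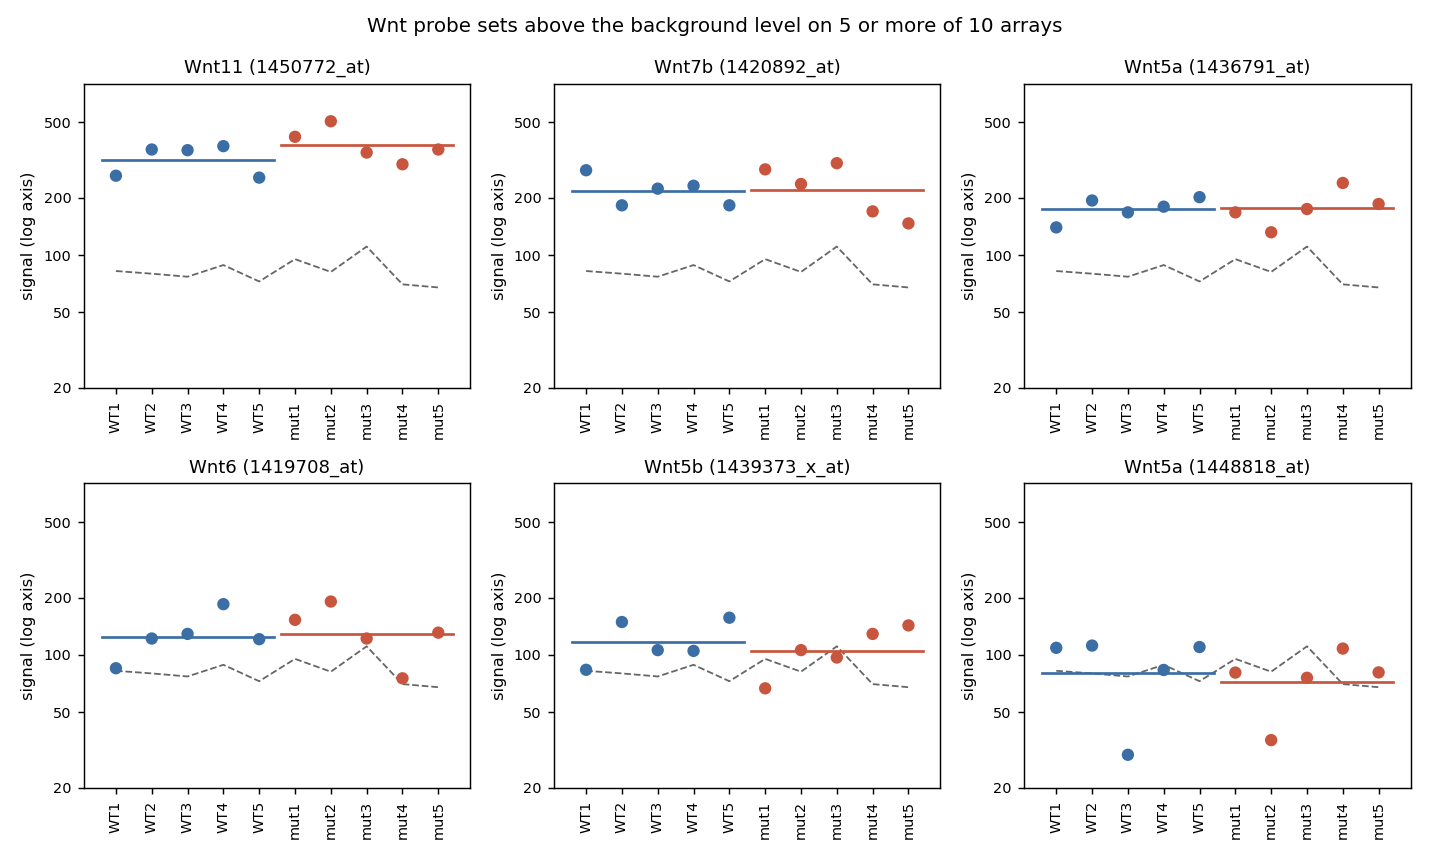
Signal on each of the 10 arrays (log axis) for the 6 Wnt probe sets above the background level on at least 5 arrays, with wild type in blue and mutant in red; horizontal lines are group means of log2 signal and the dashed line is each array's background level. Wnt11, Wnt7b and Wnt5a (1436791_at) stand clear of the dashed line on all arrays, and the groups overlap in every panel.

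The differences spread more widely among the dimmer probe sets. Among the 6 probe sets above the level on at least 5 arrays they ran from -0.16 to 0.26, with SEs of 0.18 to 0.41. Among the other 11 they ran from -1.31 to 0.96, with SEs of 0.22 to 0.77. Over all 17 the median difference was -0.07, with 8 above and 9 below 0, against a median of 0.01 and 51.8% above 0 over all probe sets. No Wnt probe set separated the groups without overlap, as 0.888% of all probe sets did.

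**Figure D2:**
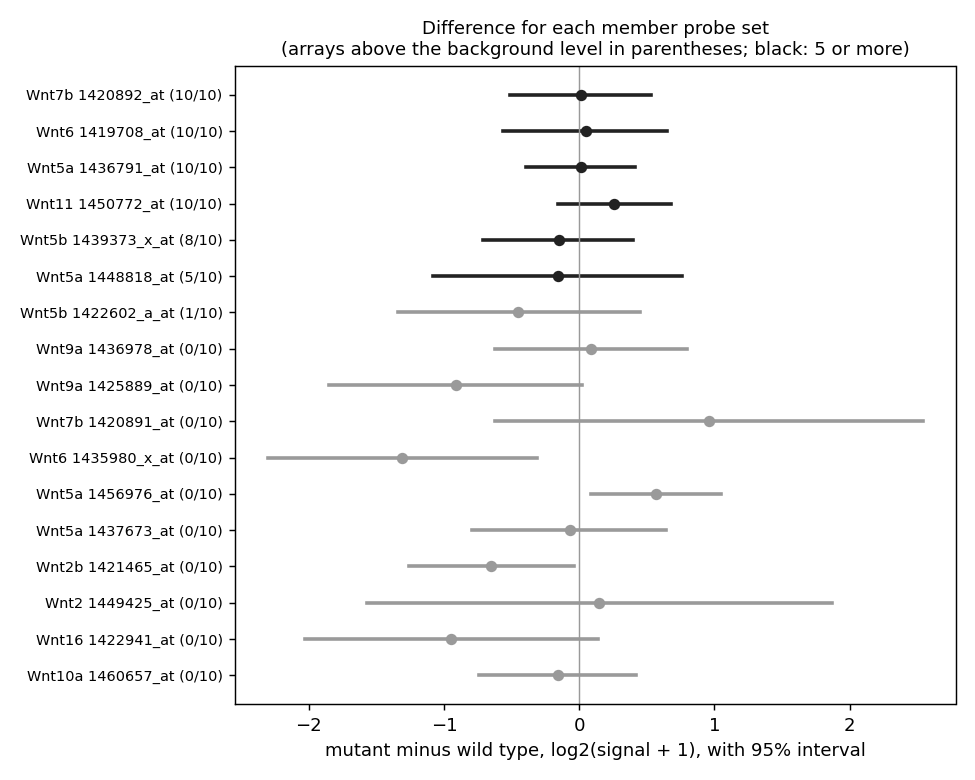
Difference between mutant and wild type (log2 scale) for each of the 17 Wnt probe sets with its 95% interval from limma, ordered by the number of arrays above the background level, which is given in parentheses. The black intervals of the 6 brighter probe sets all include 0, and 3 of the grey intervals, for dim probe sets of Wnt2b, Wnt5a and Wnt6, do not.

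The unadjusted p was under 0.05 for 3 of the 17 probe sets, or 17.6%, where 4.51% of all probe sets had one, and 5.63% of those above the background level on no array. The Wnt5a one was higher in the mutant, as 2.56% of all probe sets were at that threshold, and those of Wnt2b and Wnt6 were lower, as 1.95% were. All 3 were above that level on no array, and none passed over all probe sets (adjusted p = 1.00 in limma), where 0.00534% of probe sets that dim were called. The count was 5 without mutant replicate 2 and 1 without mutant replicate 3.

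Wnt2b, which can act through beta-catenin and is known from tissue around the nephron progenitors, gave signals of 59.1, 57.8, 54.4, 67.3 and 68.3 in wild type (1421465_at). In the mutant it gave 60.5, 18.6, 36.5, 45.2 and 46.0. Of the mutant arrays 4 lay below every wild-type array, and mutant replicate 1 lay among them. The log2 signal was 5.96 ± 0.14 (SD, n = 5) against 5.31 ± 0.62 (SD, n = 5), a difference of -0.65 (SE 0.27, limma unadjusted p = 0.0402). By 18S set it was -0.46 (high) and -0.78 (low), and it was -0.39 without mutant replicate 2.

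The dim Wnt6 probe set (1435980_x_at) gave 18.5, 27.6, 37.2, 16 and 34.2 in wild type. In the mutant it gave 4.64, 11.7, 4.46, 12.5 and 25.0. Again 4 mutant arrays lay below every wild-type array, with mutant replicate 5 among the wild-type values. The difference was -1.31 (SE 0.44, limma unadjusted p = 0.0149), -0.76 and -1.67 in the high and low 18S sets, and -0.65 with a pseudocount of 16. The bright Wnt6 probe set differed by 0.05, and over the 10 arrays the pair correlated at -0.13, so the probe sets of this gene did not give the same reading.

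A dim Wnt5a probe set (1456976_at) had signals of 52.0, 61.5, 29.0, 49.1 and 56.6 in wild type. In the mutant it had 60.5, 76.4, 91.5, 69.2 and 66.3. All but mutant replicate 1 lay above every wild-type array. The difference was 0.57 (SE 0.22, limma unadjusted p = 0.0243), 0.20 and 0.82 in the high and low 18S sets. With arrays of shared title wording as a replicate block its unadjusted p was 0.0541, which left 2 of the 17 under 0.05. These were the dim Wnt6 probe set (limma unadjusted p = 0.00971 in that fit) and Wnt2b (0.034). With the 18S set as a block 4 of the 17 were under 0.05, Wnt9a (1425889_at, limma unadjusted p = 0.0352) being added. The other 3 Wnt5a probe sets differed by 0.01, -0.07 and -0.16, and their correlations with this one were 0.07, -0.06 and 0.36 over 10 arrays.

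**Figure D3:**
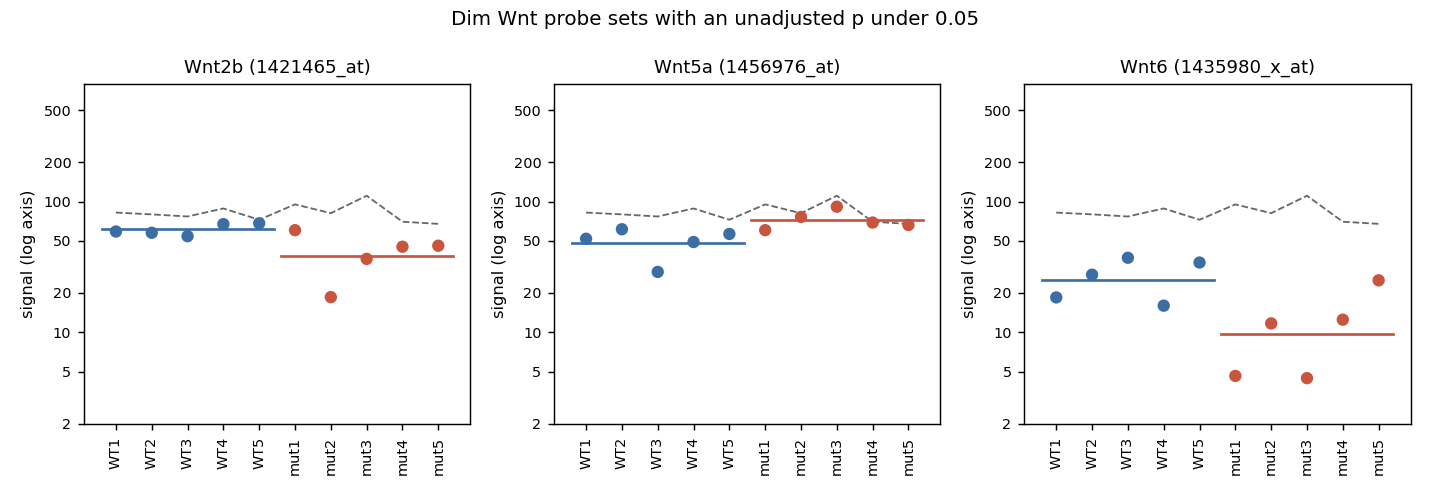
Signal on each of the 10 arrays (log axis) for the 3 Wnt probe sets with an unadjusted p under 0.05, drawn as wild type in blue and mutant in red with group means of log2 signal and each array's background level dashed. Every point lies below the dashed line, and in each panel at least 1 mutant array falls among the wild-type values.

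The remaining ligands were dim throughout. Wnt9a, which lies beside Wnt3a on chromosome 11, had signals of 17.8 to 53.3 in wild type and 20.4 to 51.6 in the mutant on one probe set (1436978_at, difference 0.09) and of 18.3 to 34.2 and 4.23 to 25.7 on the other (1425889_at, difference -0.91, SE 0.42). The latter was at -0.45 with a pseudocount of 16, at -0.57 without mutant replicate 5, and at -1.56 and -0.48 in the high and low 18S sets. Wnt10a, the neighbour of Wnt6 on chromosome 1 and a ligand of skin appendages and teeth, ran from 45.8 to 71.7 and from 34.1 to 86.5 (difference -0.16, SE 0.26). Wnt10a thus stayed below the background level on all arrays, while the bright probe set of its neighbour Wnt6 lay above it on all. Wnt2, a ligand known from lung mesoderm, ran from 1.96 to 63.8 in wild type and from 14.1 to 55.3 in the mutant (difference 0.15, SE 0.77). Wnt16 ran from 4.60 to 23.7 in wild type and from 1.83 to 9.44 in the mutant (difference -0.95, SE 0.49), and was at -0.34 with a pseudocount of 16 and at -0.61 without wild-type replicate 4. At such signals the width of the intervals, -2.03 to 0.14 for Wnt16 and -1.57 to 1.87 for Wnt2, leaves changes of several fold undetectable.

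How the brighter ligands varied from array to array was set against marker scores, each the mean log2 signal of a cell type's markers on an array. This was chosen after the values were seen, and 45 relations were computed, 5 ligands by 9 marker lists, with p-values adjusted over the 45. The bright Wnt6 probe set followed the ureteric bud score closely, at Pearson r = 0.94 over 10 arrays (permutation p = 0.00027, adjusted 0.0121) and Spearman rho = 0.82 (permutation p = 0.00579, adjusted 0.131). Without the 2 arrays farthest from the median score r was 0.82, and within the 6 low-18S arrays it was 0.92. The high-18S set of 4 arrays is too small for a value. By r this was the 1 relation of 45 that passed after adjustment, and by rho none did.

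Wnt11 followed the bud score less closely over all arrays, at r = 0.68 (permutation p = 0.0309, adjusted 0.278) and rho = 0.67 (permutation p = 0.0390, adjusted 0.220). It was at 0.64 without the 2 farthest arrays and at 0.93 within the low-18S arrays. Wnt6 and Wnt11 correlated with each other at 0.77 over the 10 arrays. Wnt7b did not follow the bud score detectably (r = 0.33, permutation p = 0.355, adjusted 0.644; rho = 0.47, permutation p = 0.179, adjusted 0.501), and its r was -0.35 within the low-18S arrays. Wnt7b was instead inversely related to the renal stroma score, at r = -0.80 (permutation p = 0.00529, adjusted 0.0979) and rho = -0.76 (permutation p = 0.0142, adjusted 0.132), with r at -0.52 without the 2 farthest arrays and at -0.34 within the low-18S arrays. Wnt5b was inversely related to the mesothelium and gonad score, at r = -0.79 (permutation p = 0.00653, adjusted 0.0979) and rho = -0.75 (permutation p = 0.0176, adjusted 0.132), with r at -0.64 and -0.58 in the same subsets. Wnt7b was positively related to that score, at r = 0.70 (permutation p = 0.0244, adjusted 0.274) and rho = 0.82 (permutation p = 0.00584, adjusted 0.131). Its r was 0.75 and 0.03 in the same subsets. None of these relations of Wnt7b and Wnt5b passed after adjustment. Of the 7 mesothelium and gonad markers 1 lay above the background level on at least 5 arrays. For Wnt5a against the ureteric bud score r was -0.48 (permutation p = 0.164, adjusted 0.529), and 0.21 within the low-18S arrays. Wnt5b and Wnt7b correlated at -0.86 over the 10 arrays, and both differed between the 18S sets, in opposite directions. Mean Wnt5b log2 signals were 7.27 (wild type) and 7.10 (mutant) in the high set, and 6.62 and 6.48 in the low set. For Wnt7b they were 7.53 and 7.32 in the high set, and 7.94 and 8.10 in the low set. The part of the 18S sets in this correlation was not tested.

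Wild-type bud scores averaged 7.16 ± 0.40 (SD, n = 5) and mutant ones 7.19 ± 0.75 (SD, n = 5), running from 6.52 to 7.60 and from 5.99 to 7.85. With this score as a covariate, the Wnt6 difference was 0.03 with an SE of 0.14 in place of 0.27, and the Wnt11 difference 0.25 with an SE of 0.15 in place of 0.19 (limma adjusted p = 1.00 for both). No Wnt probe set was called in that fit.

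**Figure D4:**
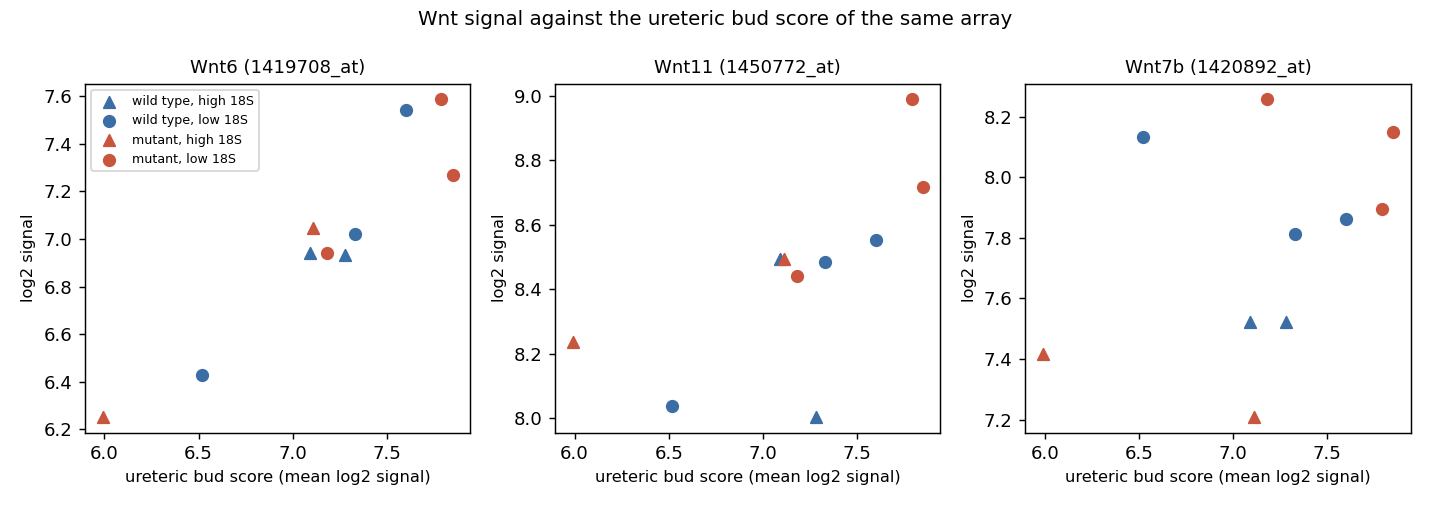
Log2 signal of Wnt6, Wnt11 and Wnt7b (vertical axes) against the ureteric bud score of the same array (horizontal axes, mean log2 signal of 15 bud markers) for the 10 arrays, with wild type in blue, mutant in red, and triangles for the 4 high-18S arrays. Wnt6 climbs with the score (r = 0.94), Wnt11 climbs with more scatter (r = 0.68), and Wnt7b does so least (r = 0.33).

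As Wnt6 and Wnt11 moved together over the arrays, the 250 bases before their annotated starts are shown, from RefSeq on GRCm38.p6 and both on the plus strand, Wnt6 at chr1:74771642-74771891 and Wnt11 at chr7:98834862-98835111, the first of the 2 Wnt11 starts listed. Capitals mark 2 motifs that were searched for on both strands without overlap between them: CTTTGAT (reverse complement ATCAAAG), a form of the site bound by Tcf and Lef factors, and TATAAA.
Wnt6: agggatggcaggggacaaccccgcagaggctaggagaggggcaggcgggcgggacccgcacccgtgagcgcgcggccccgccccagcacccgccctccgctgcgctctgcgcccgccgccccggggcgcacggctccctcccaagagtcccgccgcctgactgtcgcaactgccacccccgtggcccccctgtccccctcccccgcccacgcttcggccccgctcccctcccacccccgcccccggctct
Wnt11: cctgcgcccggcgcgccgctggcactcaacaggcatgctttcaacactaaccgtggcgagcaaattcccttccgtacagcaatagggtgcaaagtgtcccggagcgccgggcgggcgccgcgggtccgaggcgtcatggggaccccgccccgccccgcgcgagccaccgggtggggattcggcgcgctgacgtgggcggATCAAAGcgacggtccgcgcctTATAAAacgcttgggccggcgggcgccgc
The Wnt11 stretch holds both motifs and the Wnt6 stretch neither, with G and C making up 70.8% and 79.6% of the bases. Of the 32851 promoters listed by RefSeq, 3.21% hold the first motif and 12.4% the second in the same window. Among the 7 members listed, with 10 promoters, 2 promoters hold the first motif, that of this Wnt11 start and a Wnt5b one, and 1 holds the second. The other Wnt11 start listed holds neither. These are matches of letters, and nothing about binding was measured.

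The genes whose brightest probe set ran most like each ligand over the 10 arrays, among 9278 genes above the background level on all arrays, are given as a description. For Wnt11 they were Tedc2, Cog4 and Plod1 (r = 0.95, 0.93 and 0.92). For Wnt6 they were Fkbp2, Sema6c and Mastl (0.94, 0.93 and 0.92). For Wnt7b they were Dguok, Sirt3 and Psmd8 (0.95, 0.95 and 0.94), and for Wnt5a Dmpk, Gpr137b and Usp33 (0.94, 0.93 and 0.91). These are the highest of many values from only 10 arrays that share 1 scaling.

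In the rest of the Wnt family, Wnt4 had the lowest unadjusted p, with wild-type log2 signals of 9.02 ± 0.10 (SD, n = 5), mutant ones of 7.94 ± 0.36 (SD, n = 5) and no overlap (difference -1.08, SE 0.18, limma unadjusted p = 0.000129, adjusted p = 0.58). Wnt9b differed by -0.24 (SE 0.24) with its brighter probe set, above the background level on 4 wild-type arrays and 1 mutant array. Its other probe set differed by -0.78 and lay above the level on no array. Of the 9 family members outside the 10 ligands, Wnt4, Wnt7a and Wnt9b lay above the background level on at least 5 arrays, where 10831 of all 18193 genes did. Wnt7a did so with 1 of its 3 probe sets (difference -0.11, SE 0.26). Wnt1, Wnt3, Wnt3a, Wnt8a, Wnt8b and Wnt10b did not.

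Of 12 genes that lipidate, export or release Wnt proteins, 11 lay above the background level on at least 5 arrays and none was called over all probe sets. The unadjusted p was under 0.05 for 1 of the 12 and for 4.62% of all genes, and the median difference was -0.05 against 0.02 over all genes. That gene was Notum, the secreted enzyme that strips the lipid from Wnt proteins, with wild-type log2 signals of 7.32 ± 0.23 (SD, n = 5) and mutant ones of 6.23 ± 0.43 (SD, n = 5), without overlap (difference -1.08, SE 0.22, limma adjusted p = 0.81). Porcn, the acyltransferase, differed by 0.30 (SE 0.20), and Wls, the carrier that brings Wnt proteins to the surface, by 0.19 (SE 0.18).

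All 5 non-canonical co-receptors lay above the level on all 10 arrays, none was called, and none had an unadjusted p under 0.05. Ror2, a receptor of Wnt5a, differed by -0.24 (SE 0.13), its relative Ror1 by 0.25 (SE 0.15) and Ryk by -0.16 (SE 0.13). Their median difference was 0.06. The Wnt5a receptors were thus measured in the same pools as the ligand, with no difference in either that passed the test.

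Markers of other cell types were read beside these values. Of the 8 macrophage markers 6 lay above the background level on at least 5 arrays, where 10831 of all 18193 genes did. C1qa was the 1 of 8 with an unadjusted p under 0.05 (difference 0.73, SE 0.28, limma adjusted p = 1.00). The summed macrophage signal was 1254 to 1786 in wild type and 1218 to 2332 in the mutant. Of the 5 neuron and neural crest markers 3 lay above that level, and 2 had an unadjusted p under 0.05, Stmn2 (difference 0.67, SE 0.20, no overlap, limma adjusted p = 0.985) and Foxd3 (0.99, SE 0.32, below the level on all arrays, limma adjusted p = 1.00). Their summed signal was 463 to 670 in wild type and 590 to 920 in the mutant. Of the 9 renal stroma markers 1 had such a p, Pdgfra (0.36, SE 0.13, no overlap, limma adjusted p = 1.00). All 8 endothelium markers differed by more than 0, with a median of 0.14 and no unadjusted p under 0.05. So did 7 of the 9 renal stroma and 7 of the 8 macrophage markers differ by more than 0. Among 6 measured erythroid markers 5 did, with a median of 0.26 and no unadjusted p under 0.05. Over all genes 9991 of 18193 did, with a median of 0.02. The summed erythroid signal was 20356 to 43809 in wild type and 21835 to 40197 in the mutant, with 3 of the 6 markers above the level on at least 5 arrays. Of the 6 surface ectoderm markers 5 were above the level on no array, Krt14 and Trp63 among them, and Krt5 was above it on 1. Of the 10 nephron progenitor markers none was called and 8 had an unadjusted p under 0.05, all lower in the mutant, where 4.62% of all genes had one in either direction, with wild-type scores of 9.45 ± 0.11 (SD, n = 5) and mutant scores of 8.69 ± 0.37 (SD, n = 5). The part of these cell types and of bud cells in the Wnt values was not tested.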

How the data were processed

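The authors deposited 1 table of probe-set intensity values for 10 arrays, per the labels from biotin-labelled cRNA made from about 1 ug of total RNA per pool. How probes were summarised was not stated by the labels or file header. Deposited intensities are linear with the same trimmed mean (2% off each end) on each array, and array medians of log2(signal + 1) lay between 5.99 and 6.30, so no further scaling was applied. Of 45101 probe sets 64 controls were left out. Of the other 45037, 34945 had 1 gene symbol in the platform annotation, 932 had several genes and 9160 were unnamed. All 10 genes matched RefSeq by gene identifier.

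Mutant and wild type were compared on log2(signal + 1) with limma 3.58.1 in R 4.3.3 (lmFit and eBayes, statmod 1.5.0 for robust moderation), two-sided, with Benjamini-Hochberg adjustment over all 45037 probe sets and a threshold of 0.05. The added 1 lowers ratios of the dimmest signals a little. Differences of dim probe sets depended on its size: that of Wnt6 (1435980_x_at) was -1.31, and -0.65 with a pseudocount of 16. The code was tested on simulated data. Each gene outside the 10 was read by its brightest probe set. Per the labels each array had its own RNA pool. Pairs of arrays correlated at 0.915 to 0.954.

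Values on every array were given for the brightest probe set of each ligand above the background level on at least 5 arrays and for probe sets with an unadjusted p under 0.05. Up to 3 genes per list were to be named by smallest p, and others were named after their values were seen. The members, lists and alternatives were chosen with earlier results of these data known. Titles of 3 mutant and wild-type arrays share wording, and the deviations of these pairs from their group means correlated at 0.37, 0.45 and 0.55 (median -0.15 for other combinations). Each pair was used as a replicate block in an alternative fit, in which the remaining arrays together formed a further block. Each array's number only names it.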

Additional observations from a re-analysis of the deposited data

Results flagged for a closer look

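For all 17 Wnt probe sets the most distant array of each group was examined by its gap to the nearest other array relative to the spread of the group, 34 groups of values in all. By chance about 1 in 20 such groups, here 1.7, stands out, and 2 did. Wild-type replicate 5 had a Wnt2 log2 signal of 1.57, while the remaining wild-type arrays lay between 5.01 and 6.02. Wild-type replicate 3 had a log2 signal of 4.94 for the second Wnt5a probe set (1448818_at), while the remaining ones lay between 6.40 and 6.82.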

How the results depend on the processing

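No Wnt probe set was called in any of the 22 other settings, whose lowest adjusted p was 0.826, and the number of Wnt probe sets above the background level was 6 or, with the 99th percentile, 5. Over all probe sets 2 were called in the fit reported, with trend and robust moderation, and without the dimmest 40% of probe sets. The count was 3 with a pseudocount of 16. It was 1 with the brightest probe set per gene, with quantile normalization and on dropping mutant replicate 2 and wild-type replicate 3, the arrays of brightest hybridisation controls. It was 0 with probe sets averaged by gene, with the replicate block, with the 18S block, within either 18S set and with the bud score, and 0 to 1 on leaving out each array, where 1 was without wild-type replicate 3. The count of Wnt probe sets with an unadjusted p under 0.05 was 1 with the brightest probe set per gene and 1 within the high-18S arrays, and 1 to 5 on leaving out each array. It was 4 with the 18S block and on dropping mutant replicate 2 and wild-type replicate 3 together, and 2 or 3 in the other settings. Of 353 recomputed Wnt differences 318 kept their sign, 31 changed it and 4 were 0.00 after rounding to 2 decimals. Within the low-18S arrays Wnt10a was at 0.14, Wnt2 at -0.88, Wnt5a (1436791_at) at -0.04 and Wnt5a (1437673_at) at 0.12, and within the high-18S arrays Wnt6 was at -0.29 and Wnt7b at -0.21. Wnt2 was at -0.06 with a pseudocount of 16. With the mean of their probe sets Wnt6 was at -0.63 and Wnt9a at -0.41, the averages of 0.05 and -1.31 and of 0.09 and -0.91. Wnt6 was at -0.09 on dropping mutant replicate 2 and wild-type replicate 3 together. On leaving out each array, signs changed for Wnt2 (-0.60 to 0.51), Wnt5a (1436791_at, -0.10 to 0.12; 1437673_at, -0.30 to 0.14; 1448818_at, -0.51 to 0.09), Wnt5b (-0.27 to 0.01), Wnt6 (-0.10 to 0.24), Wnt7b (-0.10 to 0.16) and Wnt9a (-0.11 to 0.27). Apart from the means of probe sets, the cause was not tested. The bud score covariate was chosen after seeing the data. Signal near background limits what can be said of 11 of the 17 probe sets.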
